A study of Mus musculus with 82 samples.

Results

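Transcripts of 4 enzymes of bile acid synthesis, Cyp7b1, Cyp8b1, Slc27a5 and Baat, were followed in mouse liver on two-colour arrays of 21936 probes. They were chosen by gene symbol: each of the 4 symbols matched 1 probe in the platform annotation, so the enzymes are 4 of 3439 named features and of 21915 features tested. The liver RNA came from females and males of 17 BXD strains, recombinant inbred lines that carry mosaics of the C57BL/6J (B6) and DBA/2J (D2) genomes, and from B6 and D2 mice. On 40 arrays of BXD females, 32 arrays of BXD males and 2 arrays of B6 males, liver met 1 common mix of embryo RNA (B6, day 17.5). Another 6 arrays carried B6 and D2 liver together, with 3 arrays labelled female and 3 labelled male, and on 2 further arrays RNA labelled enriched B6 was set against enriched D2. The labels name no treatment. The series description gives 10 to 20 weeks of age, 3 unfasted mice per strain, 18 BXD strains and males alone, while the labels hold 17 strains and both sexes. The sources used here do not say whether mice were pooled into 1 RNA, so p-values measure the spread between these samples, which may be partly technical.

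Bile acids are made from cholesterol in hepatocytes and are secreted into bile, where they dissolve dietary fat and lipid-soluble vitamins. Cyp7b1 hydroxylates oxysterols in the alternative (acidic) route of synthesis and is also known as a steroid hydroxylase with more transcript in male than in female mouse liver. Cyp8b1 is the sterol hydroxylase that commits intermediates to cholic acid and so sets the make-up of the bile acid pool. Slc27a5, the bile acyl-CoA synthetase, activates bile acids to their CoA thioesters, and Baat transfers these to taurine or glycine, which is the last step before export.

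On the GRCm38.p6 assembly Cyp7b1 (Entrez gene 13123) lies at chr3:18071944-18243890, Cyp8b1 (13124) at chr9:121914356-121916305, Slc27a5 (26459) at chr7:12988346-12998192 and Baat (12012) at chr4:49489416-49507915. These are RefSeq gene spans. Where in the transcripts the probes lie was not analysed here. All values below are log2 ratios of liver over embryo mix, or of B6 over D2, and a ratio compares a gene with itself in the other RNA, so it gives no order of abundance between genes. In liver tissue, fewer cells of a type and less RNA per cell cannot be told apart.

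Some arrays go against their labels or stand apart, and the values they touch most are given with and without them. The 3 direct arrays labelled female went against that label: the Y-linked Eif2s3y was higher in the B6 channel by 0.74, 0.69 and 0.56 and Uty by 0.57, 0.57 and 1.37. On these arrays Cyp2b9, a cytochrome P450 of female mouse liver, read -2.78, -2.92 and -2.52 (B6 over D2), and Cyp2b13, another one, read -2.44, -2.64 and -2.86. The X-linked Eif2s3x read 0.17 on the forward array and -0.43 and -0.44 on the swapped ones, and Ddx3x -0.02, -0.48 and -0.63, so these differ by orientation. Between BXD females and males Cyp2b9 differed by 2.19 and Cyp2b13 by 2.15 (female minus male), and for neither gene did the female and male values of the 17 strains overlap. The 3 direct arrays labelled male read between -0.26 and 0.14 for Cyp2b9 and between -0.13 and 0.07 for Cyp2b13. On the arrays labelled female, strain and sex therefore cannot be told apart. Against the embryo mix, 1 array of BXD11 females has a title that names a dye swap while its channels name the forward orientation. It correlated at 0.846 with the forward and at -0.835 with the swapped array of the same strain and sex over all features and was used as forward. The strains BXD8, BXD9, BXD14 and BXD27 had forward arrays only, and 1 forward array of BXD31 females held Slc27a5 at the upper bound of the deposited values.

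All 4 enzymes were higher in liver than in the embryo mix, over the 13 strains with both dye orientations in both sexes. Baat was 21.9-fold higher (log2 4.45, SE 0.045), with strain means that ran from 4.24 in BXD11 through a median of 4.39 to 4.73 in BXD28. Slc27a5 was 11.9-fold higher (3.57, SE 0.036), with strain means from 3.43 in BXD32 through 3.55 to 3.83 in BXD31. Without the array at the bound BXD31 read 3.59 and the highest strain mean was 3.80, in BXD28. Both held a narrow range: the highest strain mean was 1.41 times the lowest for Baat and 1.33 times for Slc27a5. Cyp7b1 was 9.8-fold higher (3.29, SE 0.11), and its strain means spread from 2.66 in BXD19 through 3.28 to 3.86 in BXD18. Cyp8b1 was 2.36-fold higher (1.24, SE 0.11), with strain means from 0.48 in BXD15 through 1.16 to 2.01 in BXD21. In limma's fit across all features the adjusted p was 4.239e-20 for Baat and for Slc27a5, 1.448e-13 for Cyp7b1 and 4.583e-08 for Cyp8b1. At an adjusted p under 0.05 and a log2 difference of at least 1, 13.9% of the 21915 features were called and 4.69% were called higher in liver, against 4 of the 4 enzymes. The call of Cyp8b1 rests on the fold threshold: it read 0.96 in females alone and 0.95 on swapped arrays alone. The mix is 1 RNA, so its own spread is outside this test.

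Of 19 listed genes of bile acid synthesis 7 matched a named probe, and 6 of these 7 were higher in liver, with a median of 2.14 against 0.07 over all features. Besides the 4 enzymes, Abcd3, a peroxisomal transporter of fatty and bile acid intermediates, was higher by 2.14 (SE 0.079), and the cholesterol hydroxylase Cyp46a1 by 1.11 (SE 0.10). Ch25h, another oxysterol-forming hydroxylase, differed by 0.17 and did not reach the fold threshold. Of 6 measured bile acid transport genes 5 were higher: the bile salt export pump Abcb11 by 3.15, the phospholipid pump Abcb4 by 2.77, the conjugate pump Abcc2 by 2.10, the ileal uptake carrier Slc10a2 by 1.29 and the hepatocyte uptake carrier Slc10a1 by 1.0. The call of Slc10a1 rests on the fold threshold, which it only just met (1.0004, SE 0.067). Fabp6, an ileal bile acid binding protein, read -0.26. Among 8 measured regulators 4 were higher, namely the oxysterol receptor Nr1h3 (2.33), the bile acid receptor Nr1h4 (1.90), the xenobiotic receptor Nr1i3 (1.81) and the fatty acid receptor Ppara (1.38). The direction of the ratios was read from hepatocyte and embryo genes, so these are no separate check of the tissue label. On that reading 6 of 6 measured hepatocyte genes, among them Mat1a (4.26) and Otc (3.36), were higher in liver, and 9 of 13 measured embryo genes were lower. None of the measured macrophage (4), endothelial (4), lymphocyte (3) or bile duct (1) markers was called in either direction, while lower values in liver were called for 2 of 4 red blood cell markers and 1 of 2 of stellate cells and fibroblasts.

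The sexes differed in all 4 enzymes, and the difference was by far the widest for Cyp7b1. BXD females read 0.75 to 3.28 for Cyp7b1, with a median of 1.80 over 17 strains, and BXD males read 3.56 to 4.83, with a median of 4.49. The sexes did not overlap, and Cyp7b1 was lower in females in 17 of 17 strains. The difference was -2.53 (female minus male, SE 0.18), which is 5.8-fold lower in females (limma, strain as a block, adjusted p = 2.360e-08). By size it had rank 4 of the 21915 features. A call in this comparison is common, however: 33.7% of all features passed the adjusted p, 16.5% higher and 17.2% lower in females.

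Per strain, the Cyp7b1 difference ran from -3.92 in BXD8, -3.56 in BXD16 and -3.37 in BXD19 to -1.33 in BXD6 and -1.16 in BXD18. Females differed more between strains than males did. Over the 13 strains with both orientations, the SD of Cyp7b1 was 0.82 in females and 0.17 in males, and the highest value was 4.94 times the lowest in females and 1.54 times in males. Over all 17 strains the SDs were 0.84 and 0.28 and these ratios 5.77 and 2.40, with BXD27, a strain with forward arrays only, as the lowest male. Females of BXD8, BXD27, BXD19, BXD16 and BXD2 were the lowest, at 0.75, 0.78, 0.98, 1.01 and 1.07. Females of BXD12, BXD6, BXD32 and BXD18 were the highest, at 2.95, 3.05, 3.05 and 3.28. The other 8 strains lay between 1.61 (BXD31) and 2.57 (BXD21).

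**Figure D1:**
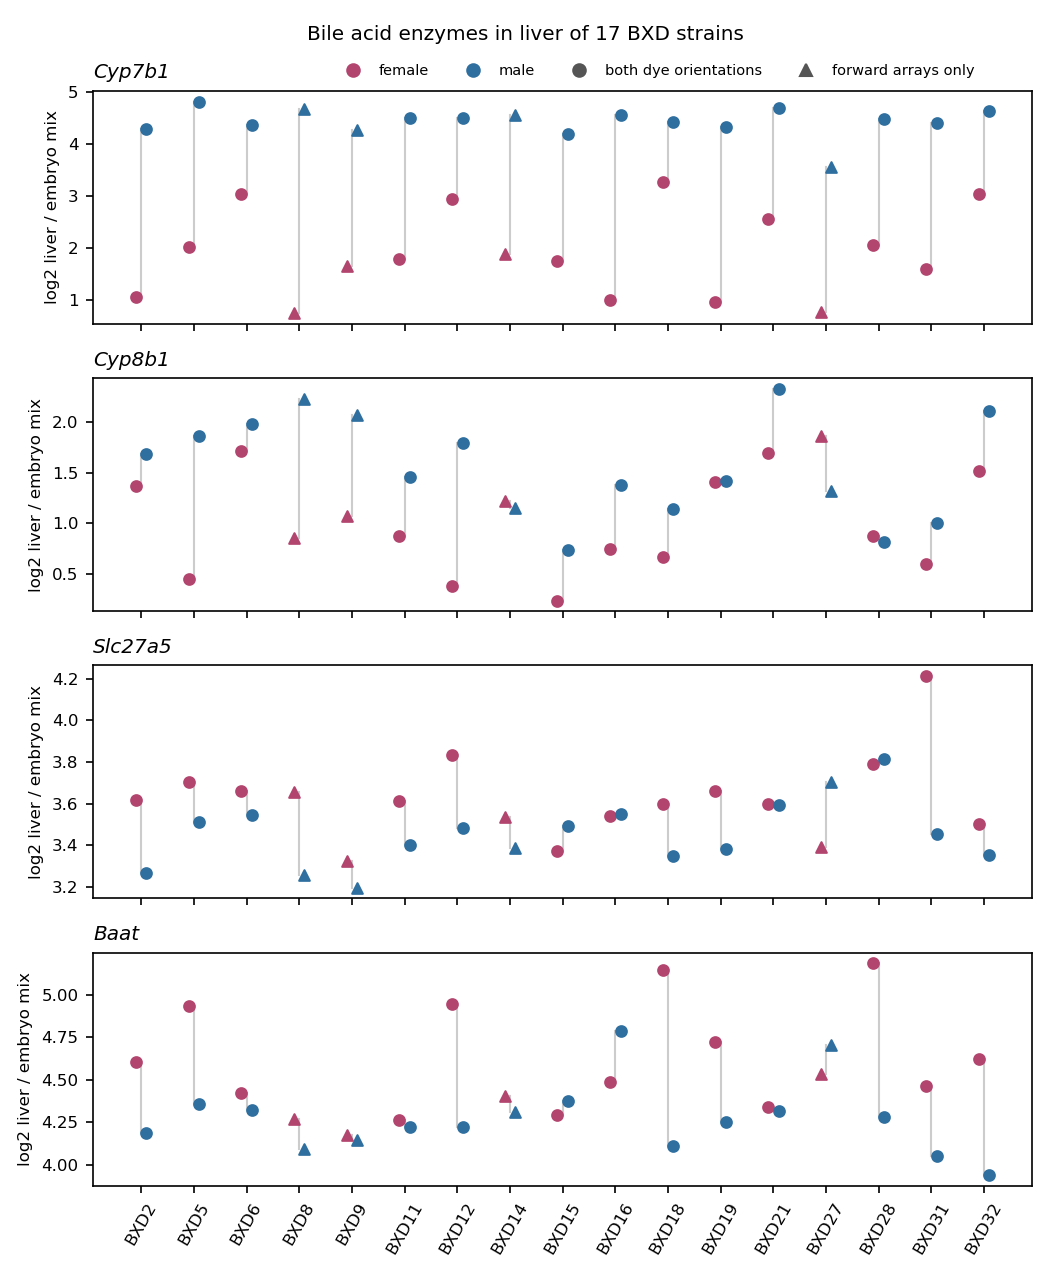
Log2 ratio of liver over embryo mix (vertical axes) for the 4 enzymes in each of 17 BXD strains (horizontal axis), with the female value left and the male value right of each strain and triangles for strains with forward arrays only. Cyp7b1 in males sits between 3.56 and 4.83 while females spread from 0.75 to 3.28, and the sexes overlap for the other 3 enzymes.

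Replicate numbers let 4 of these female strain values be set beside separate arrays. Replicate numbers of BXD32 females read 3.19 and 2.91, those of BXD21 females 2.44 and 2.70, those of BXD31 females 1.67, 1.44 and 1.65, and those of BXD15 females 2.21 and 1.32. Both BXD32 values thus lay above both of BXD21, and both of these above all 3 of BXD31, while the pair from BXD15 differed by 0.89, the widest replicate difference seen for this gene. Each step between neighbouring strains in the order of females was smaller than that 0.89. In BXD11 females the array with conflicting labels read 0.75, while the other forward array read 2.24 and the swapped one 2.11; without it the sex difference over 17 strains was -2.51. Forward and swapped arrays of the same strain and sex correlated at 0.81 over 13 females and at -0.16 over 13 males (Pearson r across strains, a description over values that share the embryo mix). Other sex-biased genes did not all read alike in the female strains with the most Cyp7b1. Cyp2b9 was 2.75, 2.76, 2.74 and 2.66 in females of BXD12, BXD6, BXD32 and BXD18, near the median of 2.72 over all females and above the highest male value of 1.33. Cyp2b13 was 1.82, 2.51, 1.95 and 1.79 in these females, so only BXD6 lay above the female median of 2.41, and all were above the highest male value of 0.33. The male-biased Elovl3 was 1.26, 1.23, 0.51 and 0.47 in the same females, so that BXD12 and BXD6 reached the male range (lowest male 1.21, female median 0.36). Cyp2d9, also male-biased, was 3.62, 3.76, 3.67 and 2.64, all below the lowest male value of 3.79, and only BXD18 lay below the female median of 3.31. The Y-linked Uty was 1.21, 1.09, 0.48 and 1.84, where the female and male ranges overlap. Eif2s3y, also Y-linked with overlapping ranges, was -0.12, -0.45, -0.34 and -0.03 (female median -0.19, male median 0.66). The X-linked Eif2s3x was 0.91, 0.26, 0.53 and 1.32, all above the highest male value of 0.23. Ddx3x, X-linked with overlapping ranges, was 0.45, -0.51, -0.19 and -0.33 (female median 0.01, male median -0.61).

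Cyp8b1 was lower in females, by less. Females ran from 0.24 in BXD15 through a median of 0.87 to 1.87 in BXD27, and males from 0.73 in BXD15 through 1.46 to 2.33 in BXD21. The ranges overlap broadly, and females were lower in 14 of 17 strains. The difference was -0.53 (SE 0.12, 1.44-fold lower in females, limma adjusted p = 0.00293). It was widest in BXD12 (-1.42), BXD5 (-1.41) and BXD8 (-1.37) and turned positive in BXD27 (0.55), BXD14 (0.07) and BXD28 (0.06). With arrays scaled to 1 common spread it was -0.33 and still called.

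Baat and Slc27a5, the enzymes of conjugation, were higher in females by small amounts. Baat read 4.18 to 5.18 in females (median 4.48) and 3.94 to 4.78 in males (median 4.25), and was higher in females in 14 of 17 strains (0.30, SE 0.090, 1.23-fold, limma adjusted p = 0.01344). The widest differences were in BXD18 (1.03), BXD28 (0.90) and BXD12 (0.72), and BXD16 (-0.30) was the lowest. Slc27a5 read 3.33 to 4.21 in females (median 3.61) and 3.20 to 3.81 in males (median 3.46), and was higher in females in 13 of 17 strains (0.17, SE 0.058, 1.12-fold, limma adjusted p = 0.03206). Its widest difference, 0.76 in BXD31, holds the array at the bound; without that array the sex difference was 0.14 (adjusted p = 0.03182). Leaving out any 1 of BXD2, BXD8, BXD11, BXD12, BXD18, BXD19 or BXD31 ended the Slc27a5 call, with adjusted p up to 0.05894. With arrays scaled to 1 common spread the differences widened to 0.68 for Slc27a5 and 0.89 for Baat, while quantile normalization narrowed them to 0.073 for Slc27a5 (limma adjusted p = 0.48327, not called) and 0.14 for Baat (0.0432).

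**Figure D2:**
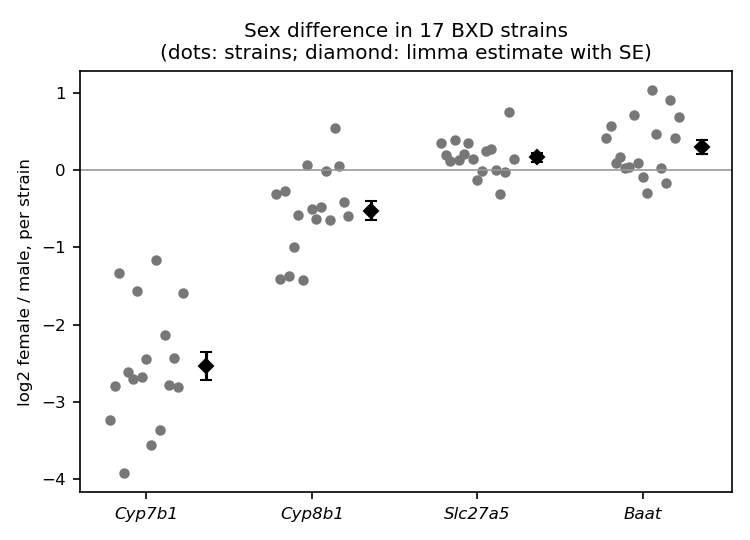
Female minus male log2 difference for each of 17 BXD strains (dots) and its limma estimate with standard error (diamonds), for each enzyme. All 17 dots lie below 0 for Cyp7b1, 14 lie below 0 for Cyp8b1, 13 above 0 for Slc27a5 and 14 above 0 for Baat.

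The sex calls of Cyp8b1, Slc27a5 and Baat were lost under settings that kept that of Cyp7b1, which among the settings run was lost only when just BXD8, BXD9, BXD14 and BXD27 were used (-3.00, limma adjusted p = 0.20148). In the other 13 strains the differences were -2.39 for Cyp7b1, -0.55 for Cyp8b1, 0.19 for Slc27a5 and 0.38 for Baat, all called. On forward arrays alone the sex difference was -0.37 for Cyp8b1 (limma adjusted p = 0.10473), 0.13 for Slc27a5 (0.37395) and 0.08 for Baat (0.57227), and on swapped arrays alone it was -0.76, 0.24 and 0.67, all called. With the run of consecutively deposited arrays as a term they were -0.44 (adjusted p = 0.17567), 0.14 (0.56611) and 0.10 (0.48764), and Cyp7b1 was -2.82 (1.751e-05). Within each of the 5 runs that hold both sexes, Cyp7b1 was lower in females, by -3.19 to -2.31. Cyp8b1 was lower in females in 4 of these 5 runs (-1.71 to 0.55), Baat higher in 4 of 5 (-0.17 to 0.23) and Slc27a5 higher in 3 of 5 (-0.31 to 0.27).

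How far the 2 dye orientations gave the same value differed between the enzymes. Over 26 strain and sex values, forward and swapped arrays correlated at 0.94 for Cyp7b1, 0.36 for Cyp8b1, 0.26 for Baat and -0.04 for Slc27a5, as a description. Cyp8b1 read higher on forward arrays, by 0.59 on average, and Slc27a5 lower, by -0.27. For Baat the orientation difference itself differed by sex, with forward minus swapped at -0.47 in females and 0.10 in males. The highest Baat values on single arrays, 5.77, 5.73 and 5.31, were swapped arrays of BXD18, BXD28 and BXD5 females from 1 run of deposited arrays that holds females alone. The part of dye and run in the sex difference of Baat was not tested further.

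**Figure D3:**
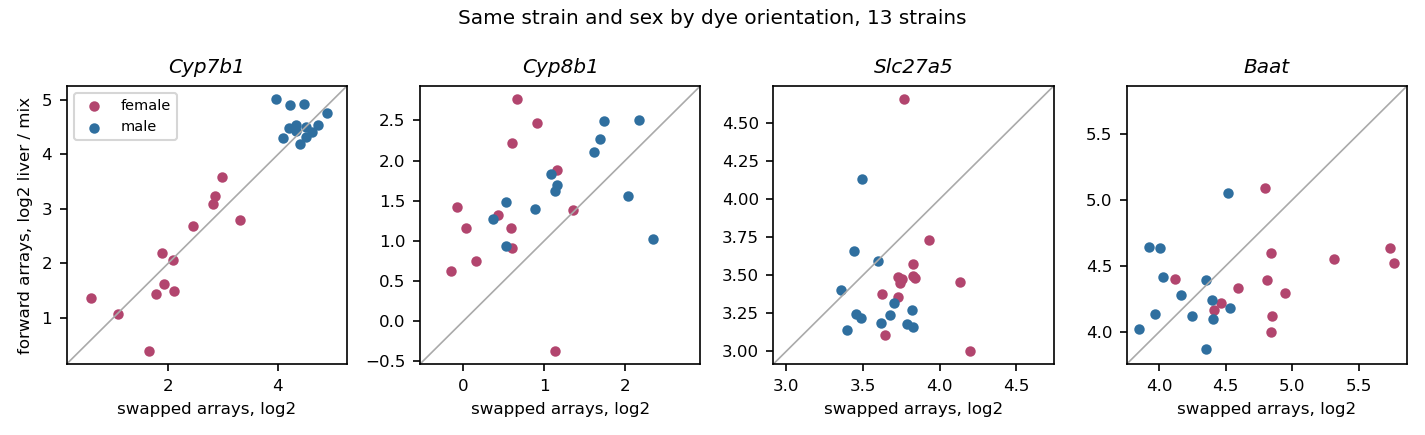
Log2 liver over embryo mix on forward arrays (vertical) against swapped arrays (horizontal) for females and males of 13 strains, with the line of equal values. Cyp7b1 follows the line across the sexes (r 0.94 over 26 values), and Slc27a5 does not order the same way in the 2 orientations (r -0.04).

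Sex calls in the rest of the pathway and in other lists are read against the 33.7% called over all features. Of the 7 measured synthesis genes, 2 were higher (Baat, Slc27a5) and 2 lower in females (Cyp7b1, Cyp8b1), with a median of 0.07 against 0.02 over all features. Cyp46a1, Ch25h and Abcd3 read 0.07, 0.13 and 0.07. No bile acid transport gene of 6 was called: their differences ran from -0.20 (Abcc2) to 0.09 (Fabp6). The bile acid receptor Nr1h4 was higher in females (0.34, limma adjusted p = 3.741e-04), the only 1 of 8 regulators that was called. In growth hormone signalling, the pathway known to set sex-biased liver transcripts in mice, Socs2, an inhibitor of the signal, was higher (0.38) and the transcription factor Stat5a lower in females (-0.32), of 7 genes measured. Hepatocyte markers had 1 of 6 called, the gluconeogenic enzyme Fbp1 (0.28), with a median of 0.10. Of other cell types, 2 of 4 macrophage markers (C1qa 0.35, C1qb 0.37), 2 of 3 lymphocyte markers and 2 of 2 stellate cell markers were higher in females. The other 2 macrophage markers, Marco (-0.10) and Cd5l (-0.18), read lower in females and were not called. Endothelial markers had 1 of 4 higher and 2 lower, and red blood cell markers 1 of 4 lower. None of the cell type lists holds 1 of the 4 enzymes, and the part of cell make-up in the sex differences was not tested.

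Differences between strains, tested with sex as a term over 13 strains, were called for 1.2% of features and for none of the 4 enzymes. The number of features called, 262, depended on the setting: it was 5589 with 17 strains, 735 with the run of deposited arrays as a term, 164 on forward arrays, 101 on swapped arrays and 139 without BXD15, again with no enzyme among them. Cyp8b1 came closest, with an F of 5.08 (limma's moderated F, adjusted p = 0.09449). Its strain means were highest in BXD21 (2.01), BXD6 (1.85), BXD32 (1.82), BXD2 (1.53) and BXD19 (1.42) and lowest in BXD15 (0.48), BXD31 (0.80), BXD28 (0.85) and BXD18 (0.90). BXD15 was the lowest of all 17 strains in females and in males, and BXD6, BXD21 and BXD32 were high in both sexes. Without BXD5 the adjusted p was 0.03718 and without BXD12 it was 0.03984; females of these 2 strains were low (0.45 and 0.38) while their males read 1.86 and 1.80. The widest difference between replicate numbers of Cyp8b1 was 1.08, in BXD21 females. Cyp7b1 had an F of 1.54, Slc27a5 of 1.36 and Baat of 0.83, with adjusted p of 0.55103, 0.60103 and 0.79437. This test takes the sexes as the 2 values of a strain, so a strain difference in females alone would count in it partly as residual spread. Whether the wider spread of Cyp7b1 over females is a difference between strains was not tested. Among the listed genes, Cyp46a1 (limma adjusted p = 0.00713) and the coactivator Ppargc1a (0.00473) were called.

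Of the 4 enzymes only Cyp8b1 was in the promoter set used here, so its upstream sequence is shown. It is the RefSeq sequence of the minus strand at chr9:121916306-121916555 (GRCm38.p6), the 250 bases before the gene's start, with 2 motif matches in capitals.
Cyp8b1: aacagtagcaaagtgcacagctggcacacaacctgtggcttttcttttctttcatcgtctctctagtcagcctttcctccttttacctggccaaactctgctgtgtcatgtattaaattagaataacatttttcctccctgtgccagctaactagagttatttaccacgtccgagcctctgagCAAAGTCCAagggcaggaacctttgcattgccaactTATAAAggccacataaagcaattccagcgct
The first match, CAAAGTCCA, is the core of a site for the hepatocyte nuclear factor HNF4 and lies 67 to 59 bases before the start, and the second, TATAAA, is a TATA box at 31 to 26 bases before it. Both strands were searched, and the motifs do not overlap. The HNF4 core is found in 0.384% of 32851 mouse promoter windows of this length and TATAAA in 12.4%. A nuclear receptor site, AGGTCA (14% of windows), and the STAT5 palindrome TTCNNNGAA (7.02%) are not in this window. The sequence is that of the reference genome, and the alleles of the BXD strains were not analysed here.

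B6 males, measured once in each orientation against the same mix, sat near the low end of BXD males for both hydroxylases. Cyp7b1 read 3.75 and 4.02, with 16 of 17 BXD male values above the mean of 3.88. Cyp8b1 read 1.06 and 0.96, with 15 of 17 BXD males above. Slc27a5 read 3.42 and 3.89, with 2 of 17 BXD males above, and Baat 4.02 and 4.47, with 9 above. There is 1 such pair of arrays, so no test was made.

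Set directly against D2, B6 liver gave no call for any enzyme: limma called 0% of features in this comparison (0 of 21915, 570 at an unadjusted p under 0.05), with the dye load of a value as a term. Cyp7b1 read 2.67, 2.47 and 2.59 (B6 over D2) on the 3 arrays labelled female, and 0.31, -0.09 and -0.07 on the 3 labelled male. The arrays labelled female thus agreed closely, in both orientations, and lay far from those labelled male. With the dye term the difference was 1.34 (SE 0.85, limma adjusted p = 0.99988), an estimate equal to the mean of the replicate 1 values. Without that term the mean of the 4 values was 1.30 (SE 0.55, limma adjusted p = 0.37958). Over the male-labelled values alone, also without it, the difference was 0.02 (SE 0.13). The term for labelled sex was 2.56 (SE 0.15, limma adjusted p = 0.57479), and that term was called for 0% of features (0 of 21915, 1719 at an unadjusted p under 0.05). BXD males read 2.53 above BXD females for this gene, and on the arrays labelled female the male-biased Cyp2d9 (2.46, 2.40 and 2.28) and Elovl3 (0.49, 1.11 and 1.20) were also higher in the B6 channel.

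Cyp8b1 read -0.49, -1.07 and -1.26 on the direct arrays labelled female and 0.19, -0.59 and 0.15 on those labelled male. Over the male-labelled values alone, without the dye term, the difference was -0.02 (SE 0.15). Over all it was -0.52 (SE 0.24) without the dye term and -0.49 (SE 0.37) with it. This is opposite in sign to Cyp7b1, although both were lower in BXD females. Slc27a5 read 0.01, 0.13 and 0.00 on the arrays labelled female and 0.57, 0.32 and 0.40 on those labelled male. Its difference was 0.26 (SE 0.16) with the dye term and 0.23 (SE 0.11) without it. Male-labelled alone, without that term, it was 0.42 (SE 0.13, limma adjusted p = 0.74925). Baat read 0.30, -0.10 and 0.10 on the arrays labelled female and 0.32, 0.12 and -0.06 on those labelled male. Its difference was 0.16 (SE 0.11) with the dye term and 0.093 (SE 0.082) without it. On the arrays of enriched RNA, Cyp7b1 read -1.26 (labelled female) and -1.22 (labelled male) and Cyp8b1 -0.36 and -0.35. The sources used here do not say what was enriched. There Cyp2b9 read 0.30 and 0.22, so these arrays do not share the sex pattern of the others labelled female.

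**Figure D4:**
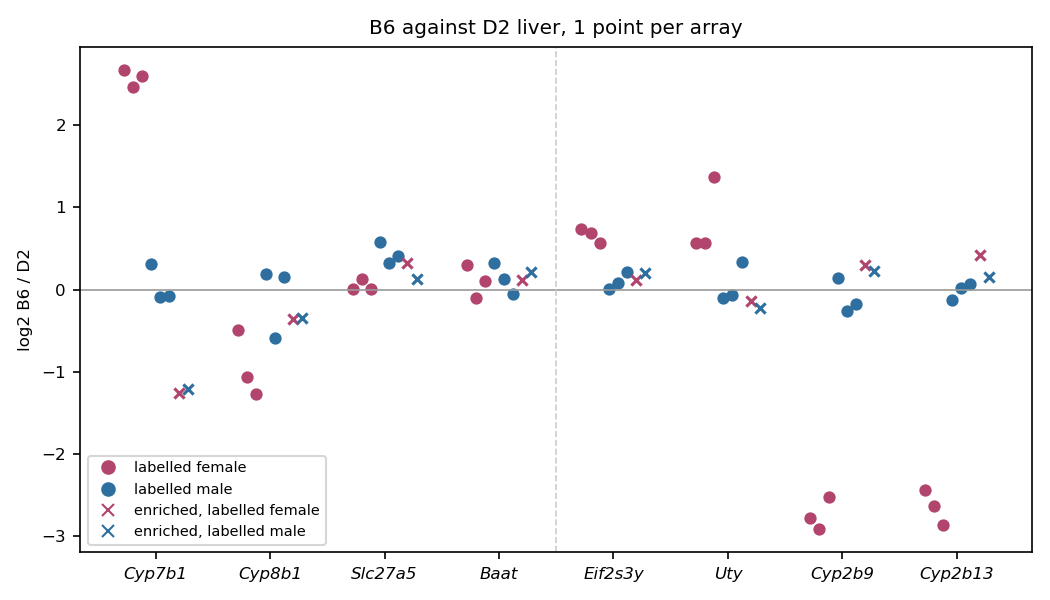
Log2 ratio of B6 over D2 liver on each direct array (circles) and on the arrays of enriched RNA (crosses), for the 4 enzymes (left of the dashed line) and 4 sex-biased genes (right). Direct arrays labelled female come first and enriched arrays last. Cyp7b1 reads 2.47 to 2.67 on the 3 direct arrays labelled female, where Cyp2b9 reads -2.92 to -2.52. It lies between -0.09 and 0.31 on the direct arrays labelled male and at -1.26 and -1.22 on the enriched arrays.

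The enzymes were then compared with each other over strains. Of 22 relations computed, 6 on strain means, 12 within a sex and 4 between females and males for the same gene, none passed Benjamini-Hochberg adjustment over the 22. On means of 13 strains Cyp7b1 and Cyp8b1 had an r of 0.31 (permutation p = 0.3044, adjusted p = 0.7951; Spearman rho 0.18, p = 0.5522), and 0.58 without BXD2 and BXD19. Cyp8b1 and Baat had an r of -0.32 (p = 0.2874; rho -0.27, p = 0.3754), and -0.19 without BXD6 and BXD21. Slc27a5 and Baat had an r of 0.24 (p = 0.4235; rho 0.30, p = 0.324), and 0.41 without BXD28 and BXD31; without the array of Slc27a5 at the bound the r was 0.54 (permutation, adjusted p = 0.2803). Cyp8b1 and Slc27a5 had an r of -0.23 (p = 0.4469; rho -0.21, p = 0.4819), and -0.40 without BXD6 and BXD21, against -0.10 without the array at the bound. For Cyp7b1 with Slc27a5 the r was 0.04 (p = 0.8942; rho 0.05, p = 0.8645), -0.20 without BXD2 and BXD19 and 0.18 without that array, and for Cyp7b1 with Baat 0.06 (p = 0.8445; rho 0.01, p = 0.9791), and 0.05 without them. Such values are common on 13 points: 49.3% of all features correlated with Cyp7b1 at least as strongly as Cyp8b1 did.

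**Figure D5:**
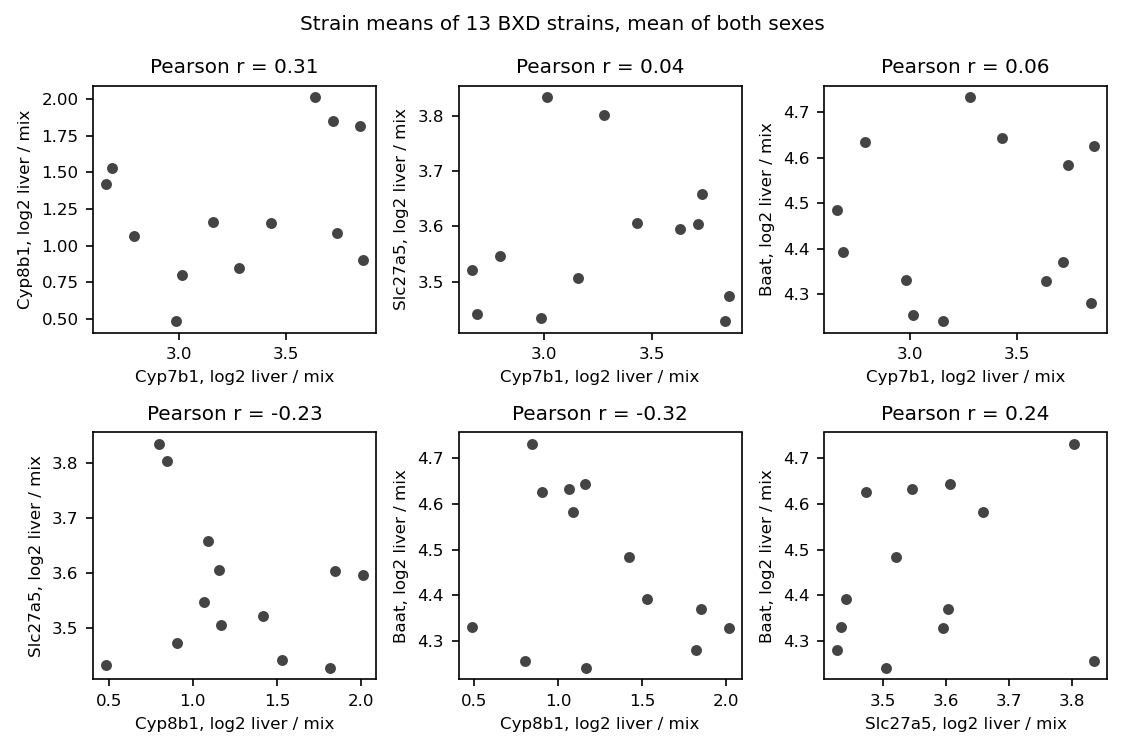
Strain means (mean of both sexes, log2 liver over embryo mix) of each pair of enzymes over 13 BXD strains, with Pearson r above each panel. The r values run from -0.32 (Cyp8b1 with Baat) to 0.31 (Cyp7b1 with Cyp8b1), and none passed the adjusted permutation test.

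Within a sex, 2 relations had an unadjusted permutation p under 0.05. In males Cyp7b1 and Cyp8b1 had an r of 0.57 (p = 0.0391, adjusted p = 0.4298; rho 0.55, p = 0.0546), which was 0.42 without BXD5 and BXD15; in females it was 0.10 (p = 0.7293). In males Slc27a5 and Baat had a rho of 0.73 (p = 0.0062, adjusted p = 0.136; r 0.44, p = 0.1332), and in females a rho of 0.41 (p = 0.1703). Whether these differ between the sexes was not tested. Between the sexes of a strain, Cyp8b1 was the enzyme whose females and males went together most closely, with an r of 0.62 (permutation p = 0.0255, adjusted p = 0.4298; rho 0.56, p = 0.0502), which was 0.42 without BXD6 and BXD21. For Cyp7b1 the r between females and males was 0.28 (permutation p = 0.3531), for Slc27a5 0.16 (permutation p = 0.5627; 0.32 without the array at the bound) and for Baat -0.18 (permutation p = 0.5642).

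Genes with the most similar pattern were ranked by Pearson r over the 26 values of 13 strains and both sexes, as a description, since the values share the mix, the runs and the sexes. For Cyp7b1 the highest were the transcription factor Irf2 (0.85), Rnf32 (0.85), the fatty acid elongase Elovl3 (0.85), the sulfotransferase Chst4 (0.84) and the Y-linked Eif2s3y (0.81), and the lowest were Cyp2b13 (-0.92), the collagen chaperone Serpinh1 (-0.90) and Zfp292 (-0.89). Among these are genes that differ by sex, as the 26 values do for Cyp7b1. For Cyp8b1 they were Ppp1r15a, a regulator of the stress response (0.82), the ascorbate carrier Slc23a2 (0.82), Ptprt (0.79), Cacna1c (0.79) and Papolb (0.79), against Rbmx (-0.84) and Smarcad1 (-0.82). Baat was most like the lipoprotein-bound esterase Pon1 (0.90), Chrac1 (0.88), Vamp8 (0.86), the complement regulator C4bp (0.86) and Supt4a (0.85), and least like the glycolytic Aldoa (-0.88), the ATP synthase subunit Atp5b (-0.85) and the ferritin chain Fth1 (-0.84). For Slc27a5 the genes were Edn3 (0.76), Atp4a (0.74), Dok1 (0.73), Ptpn18 (0.72) and Ifit2 (0.71), against Pdcd6ip (-0.78), Cyct (-0.70) and Map3k5 (-0.69). Without the array at the bound these r values ran from 0.67 to 0.81 and from -0.77 to -0.66. No enzyme was among the most similar genes of another: over the 26 values Cyp7b1 and Cyp8b1 had an r of 0.50, Slc27a5 and Baat of 0.50 (0.66 without the array at the bound), and the 4 pairs across these had r between -0.46 and -0.38.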

How the data were processed

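The authors deposited 1 log ratio for each probe on each of 82 arrays, with no unit. These deposited values were read as log10 ratios of channel 2 over channel 1, since 94 of them lie exactly at plus or minus 2, and were converted to log2. No source states the base, and each log2 value and fold depends on that reading. The labels give cy3 for both channels, so the direction came from the arrays: 6 hepatocyte genes had a higher median than 13 embryo genes on 74 of 74 arrays against the embryo mix. On the 6 direct and 2 enriched arrays both channels held liver RNA, so this could not be checked there. The same reading was carried over to them, and the sign of B6 over D2 depends on it. The 32 forward and swapped pairs correlated between -0.895 and -0.556 before swapped arrays were turned. The sources used here give neither the scanner nor the normalization, and signal over background was not analysed.

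Of 21936 probes, 3290 had 1 symbol, 4 several, 170 were named by accession through RefSeq (GRCm38.p6) and 18476 stayed unnamed. Probes of a symbol were averaged. Arrays were averaged within orientation, then across. Tests used limma 3.58.1 (R 4.3.3) with Benjamini-Hochberg adjustment over 21915 features at 0.05, checked on simulated data: liver on 13 strain means with a log2 difference of at least 1, sex on 34 values of 17 strains with strain as a block, strain by a moderated F on 13 strains with sex as a term, and B6 against D2 on 4 values with a dye term. Correlations used 2-sided permutation tests (100000 resamples). The members and lists were chosen with earlier results of these data known. Named genes are the 4 enzymes, the listed genes measured, and for each enzyme the 5 named genes with the highest r and the 3 with the lowest, clone names passed over, and 1 gene that met this rule is not reported here; genes of the label check (Y- and X-linked and sex-biased P450 genes and Elovl3) were added after values were seen. Replicate numbers were not taken as pairs.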

Additional observations from a re-analysis of the deposited data

Results flagged for a closer look

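In 20 sets of 4 or more arrays of 1 strain and sex and 1 enzyme, 2 held a single array far from the others by Dixon's criterion, where chance gives about 1 in 20. Cyp7b1 in BXD21 females read 2.9417 on 1 forward array, while the other 3 arrays lay between 2.42 and 2.46. Slc27a5 in BXD31 females read 6.6439 on 1 forward array, which is the upper bound of the deposited values, while the other 4 arrays lay between 3.63 and 3.90. On that array Cyp7b1 (0.89), Cyp8b1 (0.73) and Baat (4.11) were not at a bound.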

How the results depend on the processing

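Of 757 values recomputed under alternatives, 712 kept their side of the threshold or moved within the limits set, and none changed sign while called. Uncalled values did change sign, in 25 of 242 correlations and in 2 of 12 values of the labelled sex term. Read as log2 as deposited, 205 features were called for liver over embryo mix and Cyp7b1 (0.99) and Cyp8b1 (0.37) fell under the fold threshold, as Cyp8b1 did in females alone (0.96) and on swapped arrays (0.95). Sex calls were lost on forward arrays alone (Cyp8b1 -0.37, Slc27a5 0.13, Baat 0.082), with the run of deposited arrays as a term (-0.44, 0.14, 0.10; 4789 features called) and in the 4 strains with forward arrays only (Cyp7b1 -3.00, Cyp8b1 -0.44, Slc27a5 0.090, Baat 0.034; 0 features by limma, 3276 at an unadjusted p under 0.05). The Slc27a5 sex call was also lost after quantile normalization (0.073), with trend and robust settings (0.17), with 1 value per replicate number without the replicate block (0.17) and with it (0.16, adjusted p = 0.21753), and when any 1 of BXD2, BXD8, BXD11, BXD12, BXD18, BXD19 or BXD31 was left out (range over strains left out 0.13 to 0.20, adjusted p from 0.00745 to 0.05894). The block changed no other sex call of an enzyme (7837 features with it, 8096 without). Replicate numbers 1 and 2 of 5 strain and sex groups deviated together in 4 of 10 pairs (r -0.20 to 0.43). For the labelled sexes of B6 against D2 the r was 0.32. Replicate number 1 of BXD21, BXD31 and BXD32 females came from the same run of deposited arrays, and replicate number 2 from another shared run. Why some pairs deviated together was not tested. For B6 against D2 the block takes the same column as the dye term and gave the same 1.34 for Cyp7b1. Strain calls numbered 164 on forward arrays, 101 on swapped arrays, 5589 with 17 strains, 735 with the run as a term, and 139 (without BXD15) to 278 with 1 strain left out; with 1 strain left out the F of Cyp8b1 ran from 3.86 to 7.60 and was called without BXD5 or BXD12, and under the other settings it ran from 2.66 (17 strains) to 7.44 (swapped arrays) and was not called. B6 against D2 gave 8 calls after scaling and 11 after quantile normalization (33 for the labelled sex term). It gave 39 without the dye term and 3 with the enriched arrays. With 1 value left out, also without the dye term, it gave 0 to 29 calls. There were 3 without female replicate 1, 29 without female replicate 2 and 2 without male replicate 2. None of all these calls was an enzyme described here. After scaling, Slc27a5 and Baat correlated at 0.77 on strain means (permutation, adjusted p = 0.0106). Without scaling and with 1 strain left out, this r ran from -0.02 to 0.60. On swapped arrays alone females and males correlated at 0.77 for Cyp8b1 (permutation, adjusted p = 0.0306). The causes were not tested. The number of arrays limits the precision. Leaving out the array at the bound (for the likeness of Slc27a5 too), the male-labelled direct arrays alone, and the scalings of the labelled sex term were chosen after seeing the data.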
